A study of Mus musculus with 12 samples.

Results

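Histone genes and the genes that process histone mRNA were examined in mouse bone marrow progenitors that carried 1 floxed or only intact alleles of Wt1. Members were the genes whose symbols start with Hist1h to Hist4h, H2af, H3f3 or H1f, together with Slbp, Lsm10, Lsm11 and Zfp473. The table held 93 such genes among 33924. Of these, 70 are replication-dependent Hist genes (6 for H1, 20 for H2A, 19 for H2B, 12 for H3 and 13 for H4), 19 are replacement histone genes (4 for H1, 10 for H2A and 5 for H3) and 4 take part in histone mRNA processing. A level is given as counts per 1e6 counts (CPM), scaled over the genes that had enough counts to be tested. By that filter 49 members were tested, of 10604 genes in all, namely 37 Hist genes, 9 replacement genes and 3 processing genes.

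RNA was read by 3' tag sequencing in 12 libraries of live cells sorted as negative for lineage markers and Sca1 and positive for c-Kit, which are myeloid progenitors. All mice carried Mx-Cre, a Cre driven by an interferon-inducible promoter that is active in blood cells and also in other tissues. Controls had both Wt1 alleles intact (Wt1+/+) and hets had 1 floxed allele (Wt1fl/+). Old and young mice of both genotypes gave 4 groups of 3 libraries, called here by age and genotype, with no treatment stated. All old libraries are also labelled "chronic" and all young ones "acute", words that the labels leave unexplained, and no age is given in numbers, so age and that condition cannot be told apart. Whether each library came from its own animal is not stated. The p-values thus cover the spread between these libraries only.

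Cells in S phase make most of their histones from the replication-dependent genes, which lie in clusters, have no introns and give mRNAs that end in a conserved stem-loop where other mRNAs have a poly(A) tail. The stem-loop binding protein, encoded by Slbp, binds this structure and acts with the U7 snRNP, of which Lsm10 and Lsm11 are subunits, when the precursor is cut, and it stays with the mRNA during export, translation and decay. Replacement histones are made throughout the cell cycle from genes outside these clusters, most of which give polyadenylated mRNAs. Kits for 3' tags usually prime on poly(A), so that counts of Hist genes need not follow the full amount of their mRNA. In human and mouse cells some Hist genes are also known to give longer, polyadenylated transcripts, among others in differentiated cells.

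The stem-loop is the sequence that Slbp recognises, so the annotated transcripts of the members were searched for it, on the transcript strand, with the histone stem-loop consensus of 16 bases (GENCODE M21, build GRCm38, which is not the build named by the submitters). It was found in 46 of 70 Hist genes, in 1 of the 17 replacement genes that the annotation holds and in 0 of 4 processing genes. Among all 21877 protein-coding genes 72 held it (0.329%), and 47 of these are members. The commonest of 8 distinct Hist stem-loops was found in 26 genes. Examples are printed for the stem-loop genes of highest mean CPM in each class, for Hist1h2ae, which the tests called, and for variants of the sequence, 5' to 3' on the transcript strand, with the stem-loop in capitals between its flanks of 5 bases.
Hist1h1e, chr13:23621777-23621802, minus strand: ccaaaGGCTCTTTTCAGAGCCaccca
Hist1h2ac, chr13:23683472-23683497, minus strand: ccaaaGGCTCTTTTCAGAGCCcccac
Hist1h2ae, chr13:23570663-23570688, minus strand: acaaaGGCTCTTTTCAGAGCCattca
Hist1h2bk, chr13:22036295-22036320, plus strand: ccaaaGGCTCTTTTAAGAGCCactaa
Hist1h3d, chr13:23576239-23576264, plus strand: ccaaaGGCTCTTTTCAGAGCCacccc
Hist1h4d, chr13:23581945-23581970, plus strand: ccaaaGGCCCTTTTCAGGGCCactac
Hist1h4a, chr13:23760795-23760820, minus strand: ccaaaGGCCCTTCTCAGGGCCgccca
H2afx, chr9:44335235-44335260, plus strand: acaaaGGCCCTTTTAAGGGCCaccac
H2afx, which encodes the H2A.X variant that is phosphorylated at DNA breaks, was the only replacement gene with a match. A gene without a match is one whose annotated transcripts do not hold these letters, and nothing follows about its mRNA. Among the genes without one were Hist1h1a and Hist1h1b, 2 of the 6 H1 genes.

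Levels differed widely along the annotated transcript ends. In 22 Hist genes the annotated transcript ran on for at least 150 bases after the stem-loop, a limit set after the lengths were seen. These 22 genes held 60.4% of the summed mean CPM of the Hist genes, with a median mean level of 6.14 CPM. The 24 genes with a shorter annotated end (3 to 108 bases) held 14.4%, with a median of 2.55 CPM, and the 24 genes without a match held 25.2%, with a median of 1.46 CPM. The polyadenylation signal AATAAA lay after the stem-loop in 13 of the 22 long-ended and in 1 of the 24 short-ended genes. Longer ends have more bases in which it can occur, so these 2 counts cannot be compared directly. Within the last 40 bases of the annotated transcript it was found in 10 of the 22 long-ended and 2 of the 24 short-ended genes. In that window 15 of 70 Hist genes, 9 of 17 replacement genes and 64.1% of protein-coding genes held it. Genes just inside the limit were Hist1h2ae, with 151 bases and 16.8 CPM, and Hist1h2bg, with 155 bases. The long-ended genes gave 54.6% to 71.6% of the Hist counts of each library. The young hets, at 71.6%, 62.4% and 66.3%, held 2 of the 3 highest shares.

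**Figure D1:**
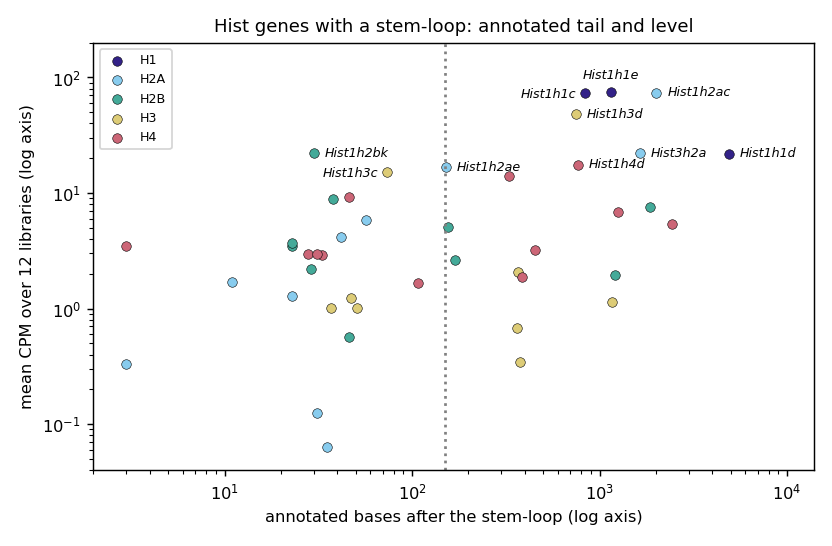
Hist genes with a stem-loop in their annotated transcript, by the number of annotated bases after it (x, log axis) and the mean CPM over 12 libraries (y, log axis). Points are 44 genes coloured by histone class, the dotted line stands at 150 bases, and 2 genes without a count are left out. Most of the labelled genes, those of highest level, lie right of the line, while Hist1h2bk and Hist1h3c lie left of it.

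Libraries held 645460 to 9645502 counts, so a gene with 3 counts had 5.10 CPM in young control 2, the shallowest, and 0.275 CPM in old control 1, the deepest. Wt1 was counted 1 to 4 times in each old library and 4 to 23 times in each young one, too few to test, and a 3' tag outside the deleted part would not check the genotype. Kit, the gene of c-Kit, was present at 96.5 to 291 CPM in every library. Old control 1 stood apart with 69.8 CPM of Ly6a, the gene of Sca1, against at most 1.18 CPM elsewhere. Its summed markers of dendritic cells and MHC class II (649.5 CPM) were also far above the other old controls (39.4 and 65.4 CPM). Xist was counted 1058 times or more in the young hets, in young control 3 and in old het 1, which had no count of the Y-linked Ddx3y, and at most 5 times in the other libraries, so that sex-linked RNA moved with genotype among the young. Mitochondrial rRNA took 4.35% to 8.22% of the counts of young controls, 2.999% to 3.51% of young hets, 1.70% to 2.38% of old controls and 1.40% to 4.78% of old hets. The small nucleolar RNA U3, which has no poly(A) tail, stood at 446, 583 and 554 CPM in the young controls and at 35.0 to 99.8 CPM in the other libraries.

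Slbp was the member whose level differed most clearly between groups. The young controls had 410.0, 673 and 419.6 CPM of Slbp (540, 396 and 549 counts). In the young hets it stood at 78.3, 40.8 and 62.6 CPM, in the old controls at 19.96, 32.3 and 30.1 CPM, and in the old hets at 115, 27.7 and 113 CPM. Every young control was thus above every other library, a separation whose share over all genes was not counted. The old hets were spread, with old het 2 inside the range of the old controls and the other 2 above it. Group means were 501 ± 149 CPM in young control, 60.6 ± 18.8 in young het, 27.4 ± 6.57 in old control and 85.2 ± 49.8 in old het (SD, n = 3). The exact 95% Clopper-Pearson interval was 608.5 to 743 CPM in the shallowest library, young control 2, and 17.4 to 22.8 CPM in the deepest, old control 1, and covers counting error only. In bulk RNA, fewer cells that make Slbp and less Slbp RNA per cell cannot be told apart. The RNA U3 was likewise highest in the young controls, at 446, 583 and 554 CPM against 35.0 to 99.8 CPM in the other libraries. The part of such a difference between libraries in the Slbp values was not tested.

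**Figure D2:**
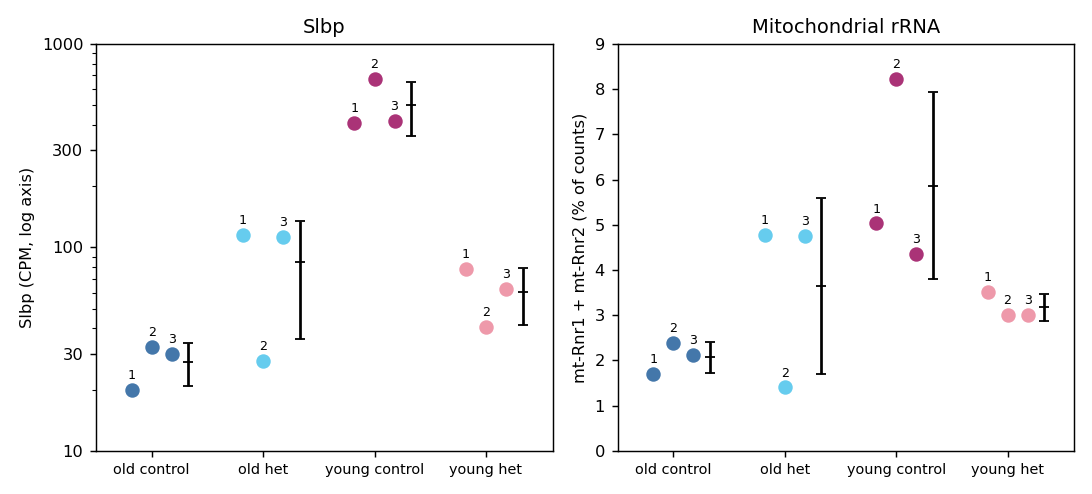
Slbp level (left, CPM, log axis) and share of counts in mitochondrial rRNA (right, percent) in each of 12 libraries, numbered by replicate within their group. Bars are the group mean ± SD of 3 libraries. Young controls lie between 410.0 and 673 CPM of Slbp, above all other libraries, and also hold the highest single share of mitochondrial rRNA, 8.22%.

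Heterozygosity for the floxed allele went with a lower Slbp level in young progenitors. Slbp fell by 3.05 on the log2 scale in young het against young control (SE 0.46, adjusted p = 0.00538 by edgeR's quasi-likelihood test with Benjamini-Hochberg adjustment), with the third smallest p of all genes. It was the only member called, 1 of 49, against 0.424% of all tested genes (0.179% higher and 0.245% lower). The call was lost without young control 2 (-2.80, adjusted p = 0.0619), without young het 2 (-2.82, adjusted p = 0.0768) or without young het 3 (-3.07, adjusted p = 0.0600). In old progenitors the change was +1.63 (SE 0.44, adjusted p = 0.999). There the groups overlapped, edgeR called no member and 0% of genes, 1 member and 380 genes had an unadjusted p under 0.05, and DESeq2 called 0 members and 0 genes. The test without a filter on low counts called Slbp in old het against old control (+1.65, adjusted p = 0.0401).

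The difference between these effects was itself tested. The het effect on Slbp in old minus that in young was 4.68 as a log2 value (SE 0.63, adjusted p = 0.00377). This was the smallest p of all 10604 genes, of which 0.0849% were called (0.0754% higher). The effects share no control library between ages. Old control against young control gave a fall of 4.19 (SE 0.48, adjusted p = 0.000121), with the second smallest p, and there 6.98% of genes were called (4.19% lower). Old het against young het gave +0.48 (SE 0.43, adjusted p = 0.906). These comparisons use the same 12 libraries, and the level of the young controls enters the young comparison, the difference and the comparison of controls alike.

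Slbp moved with the share of mitochondrial rRNA across libraries. Old hets 1 and 3, with 4.78% and 4.75% mitochondrial rRNA, had 115 and 113 CPM of Slbp, and old het 2, with 1.40%, had 27.7 CPM. Young control 3 had 4.35% mitochondrial rRNA, less than old hets 1 and 3, and 419.6 CPM of Slbp. With the share as a covariate, the log2 change of Slbp was -2.0025 in young het against young control (adjusted p = 0.352), 2.82 for the difference of effects (adjusted p = 0.772) and -2.71 in old against young control (adjusted p = 0.0616), so that every call was lost. In that fit edgeR called 1 gene in young het against young control and 0 genes in the other 2 comparisons, so the loss is not particular to Slbp. The share was 4.35% to 8.22% in young controls, above the 2.999% to 3.51% of young hets and the 1.70% to 2.38% of old controls. Among the young and among the controls, share and group thus cannot be told apart. With Xist as a covariate Slbp changed by -3.17, 4.75 and -4.13 in these comparisons and kept each call (adjusted p = 0.0127, 0.00463 and 0.000198). Only 1 young control, young control 3 with 419.6 CPM of Slbp, shares the pattern of sex-linked RNA with the young hets. The part of sex in the Slbp values was not tested beyond the fit with Xist as a covariate.

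The other processing genes did not follow Slbp. Lsm10, a subunit of the U7 snRNP, stood at 49.8, 22.6 and 29.2 CPM in old controls, 11.3, 24.4 and 13.8 in old hets, 6.07, 10.2 and 7.64 in young controls and 39.3, 15.5 and 6.99 in young hets. All old controls were above all young controls, as for 19.0% of all genes, and both het groups overlapped with their controls. The counts behind the young control values were 8, 6 and 10. The log2 change of Lsm10 was 2.12 in old against young control (SE 0.69, adjusted p = 0.0663), and the call was gained without young het 1 (2.05, adjusted p = 0.0474) and by DESeq2 (2.06, adjusted p = 0.0350). It was 1.39 in young het against young control (SE 0.68, adjusted p = 0.368), -1.02 in old het against old control, -2.41 for the difference of effects (adjusted p = 0.274) and -0.29 in old against young het. Lsm11, the other specific subunit, ranged from 13.6 to 32.7 CPM with overlapping groups in each comparison and log2 changes between -0.39 and 0.22, none called. Zfp473, whose human counterpart binds the complex of Slbp and histone precursor mRNA, had 49, 4 and 0 counts in old controls, 0, 18 and 0 in old hets and 1 count in all young libraries, and was not tested.

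The Hist genes together did not show the pattern of Slbp. Their summed level was 573, 794 and 572 CPM in old controls, 779, 773 and 765 in old hets, 635, 637 and 686 in young controls and 738, 560 and 478 in young hets. Means were 646 ± 128, 772 ± 6.89, 653 ± 29.0 and 592 ± 133 CPM in that order (SD, n = 3), so young controls, with the highest Slbp, lay inside the range of the old controls. Of the 70 Hist genes 37 were tested, 29 had counts but too few to test, up to a mean of 2.95 CPM, and 4 had none in any library (Hist1h1t, Hist1h2bq, Hist2h2aa1 and Hist2h2ab). Near-identical copies within the clusters could share reads, which makes the level of a single Hist gene uncertain. The median log2 change of the 37 tested Hist genes was -0.09 in young het against young control (16 positive) and 0.33 in old het against old control (26 positive), beside 0.08 and -0.05 over all genes. The old value was 0.03 without old control 1, 0.19 without old het 3, 0.20 without old het 2 and 0.62 without old control 2, and the young one -0.61 without young het 2. For the difference of effects it was 0.34, beside -0.18. In old against young control it was 0.28 (21 positive), beside 0.22, and -0.21 without old control 2, and in old against young het 0.95 (27 positive), beside 0.01, and 0.51 without old het 2.

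**Figure D3:**
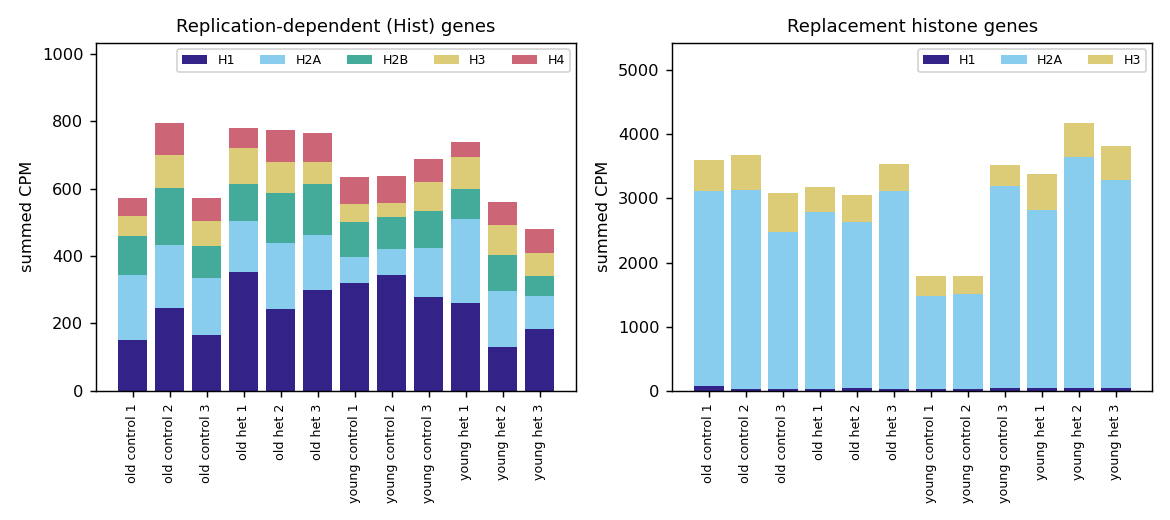
Summed CPM of replication-dependent (left) and replacement (right) histone genes in each of 12 libraries, stacked by histone class from H1 at the bottom. Both axes start at 0 and differ in scale. The Hist sum stays between 478 and 795 CPM, and the replacement sum is lowest in young controls 1 and 2, at 1797 and 1786 CPM.

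Linker histones made up the class whose members pointed the same way in most comparisons. The H1 Hist genes summed to 319, 343 and 277 CPM in young controls, 259, 129 and 182 in young hets, 152, 246 and 167 in old controls and 351, 242.5 and 298 in old hets. Young hets were thus all below the young controls, while old controls and old hets overlapped. All 5 tested H1 genes had a negative log2 change in young het against young control (median -1.02) and in old against young control (median -0.74), and a positive one in old het against old control (median 0.78). None of the 5 was called in any comparison. Their unadjusted p was under 0.05 for 2 genes in young het against young control, 0 in old het against old control, 0 in old against young control, 3 in old het against young het and 3 for the difference of effects. Over all 10604 genes this held for 1488, 380, 2453, 666 and 1356 in that order. DESeq2 called Hist1h1a in young het against young control (-2.86, adjusted p = 0.0123) and no other H1 gene in any comparison. As with Slbp, old hets 1 and 3, with 4.78% and 4.75% mitochondrial rRNA, were the old libraries with the highest H1 sums. Young controls, with 4.35% to 8.22%, were also high, and old controls, with at most 2.38%, were low. The part of mitochondrial rRNA in the H1 values was not tested beyond the fits of single genes with it as a covariate, in which edgeR called no member in young het against young control, the difference of effects or old against young control.

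Single H1 genes varied widely within groups. Hist1h1a, which encodes H1.1, stood at 10.6, 15.3 and 42.03 CPM in young controls and at 0.672, 4.05 and 4.94 CPM in young hets, from 2, 27 and 29 counts. These groups did not overlap, as for 7.12% of all genes in this direction, but the log2 change of -2.77 (SE 0.82) was not called (adjusted p = 0.133). Old controls had 9.52, 15.6 and 6.63 CPM and old hets 21.8, 13.6 and 13.1 CPM of Hist1h1a, and the difference of effects was 3.38 (SE 1.12, adjusted p = 0.201). Hist1h1b, which encodes H1.5, stood at 99.5, 102 and 42.03 CPM in young controls, 68.9, 22.2 and 28.8 in young hets, 37.0, 65.5 and 42.01 in old controls and 93.0, 54.9 and 102 in old hets. Both pairs of groups overlapped, and the difference of effects was 1.81 (SE 0.66, adjusted p = 0.243). In old het against old control the 3 Hist genes of smallest p were Hist1h1b (0.78), Hist1h1e (0.94) and Hist1h1d (0.84), all with adjusted p = 0.999. Hist1h1e, the Hist gene of highest mean CPM, had 84.1 to 130 CPM in old hets, above the 35.1 to 73.6 CPM of old controls, but 24.5 to 131 in young controls and 26.9 to 140 in young hets. Hist1h1c, which encodes H1.2, ranged from 38.6 to 165 CPM without separate groups.

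Core histones of the replication-dependent kind varied gene by gene. Hist1h2ac, an H2A gene with a long annotated end, stood at 40.2, 17.0 and 58.1 CPM in young controls and at 191, 122 and 56.8 CPM in young hets, groups that overlapped through young control 3 and young het 3. Its log2 change was 1.64 (SE 0.49, adjusted p = 0.135), and the test without a filter on low counts called it (1.67, adjusted p = 0.0183). Hist1h3d, an H3 gene, stood at 19.7, 15.3 and 35.15 CPM in young controls, below the 68.5, 50.6 and 38.0 CPM of young hets and below the 47.9, 73.6 and 47.3 CPM of old controls. It was not called in either comparison (1.13, adjusted p = 0.238, and 1.24, adjusted p = 0.0916). Without young control 3 it was called in old against young control (1.60, adjusted p = 0.0453). Of the 37 tested Hist genes, 1 was entirely higher and 1 entirely lower in young hets than in young controls, where the groups did not overlap for 9.72% of all genes that were higher and 7.12% that were lower (16.8% in all). In old hets 3 Hist genes were entirely higher than in old controls (Hist1h1d, Hist1h1e and Hist2h2ac) and 0 lower, against 5.15% and 5.99% of all genes. Old controls were entirely above young controls for 4 Hist genes and entirely below for 0, against 19.0% and 12.2% of all genes (31.2% in all).

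Hist1h2ae was the only Hist gene that edgeR called with all libraries and the filter on low counts. It stood at 0.759, 1.70 and 9.94 CPM in young controls, from 1, 1 and 13 counts, and at 16.9, 32.5 and 42.9 CPM in old controls, with no overlap. The level of Hist1h2ae, an H2A gene, rose by 2.79 on the log2 scale in old against young control (SE 0.83, adjusted p = 0.0474), where 2.79% of genes were called higher. With 1 count in each of 2 young controls the size of this change is poorly known. The value was 4.72 without young control 3 (adjusted p = 0.00890), and the call was kept without young het 1 or 2. It was lost without each of the other 9 libraries, with adjusted p from 0.0507 to 0.164. Old hets had 23.45, 34.5 and 20.4 CPM and young hets 11.4, 2.70 and 3.92 CPM of Hist1h2ae, again without overlap, but the change of 2.15 was not called (SE 0.76, adjusted p = 0.675). Hist1h2bk, an H2B gene with a short annotated end, behaved alike in level, at 28.7, 42.9 and 21.2 CPM in old controls and 37.2, 57.3 and 28.2 in old hets against 8.35, 11.9 and 2.29 in young controls and 1.34, 20.1 and 4.94 in young hets. Every old library was above every young one for both genes, narrowly for Hist1h2bk (21.2 against 20.1 CPM). Old controls were entirely above young controls for 19.0% of all genes, and old hets entirely above young hets for 7.08%. The share of all genes with every old library above every young one was not counted. The log2 change of Hist1h2bk was 2.12 between controls (adjusted p = 0.112) and 2.19 between hets (SE 0.74, adjusted p = 0.675), neither called.

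In old het against young het no member was called by edgeR or by DESeq2, where edgeR called 0.00943% and DESeq2 15 of all genes. An unadjusted p under 0.05 was found for 7 of 49 members and 666 of 10604 genes. The groups did not overlap for 9 Hist genes that were higher and 2 that were lower in old hets, of 37, against 7.08% and 6.95% of all genes (14.0% in all). The 3 Hist genes of smallest p here were Hist1h2bk, Hist1h1a (2.27, adjusted p = 0.675) and Hist1h2ae.

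**Figure D4:**
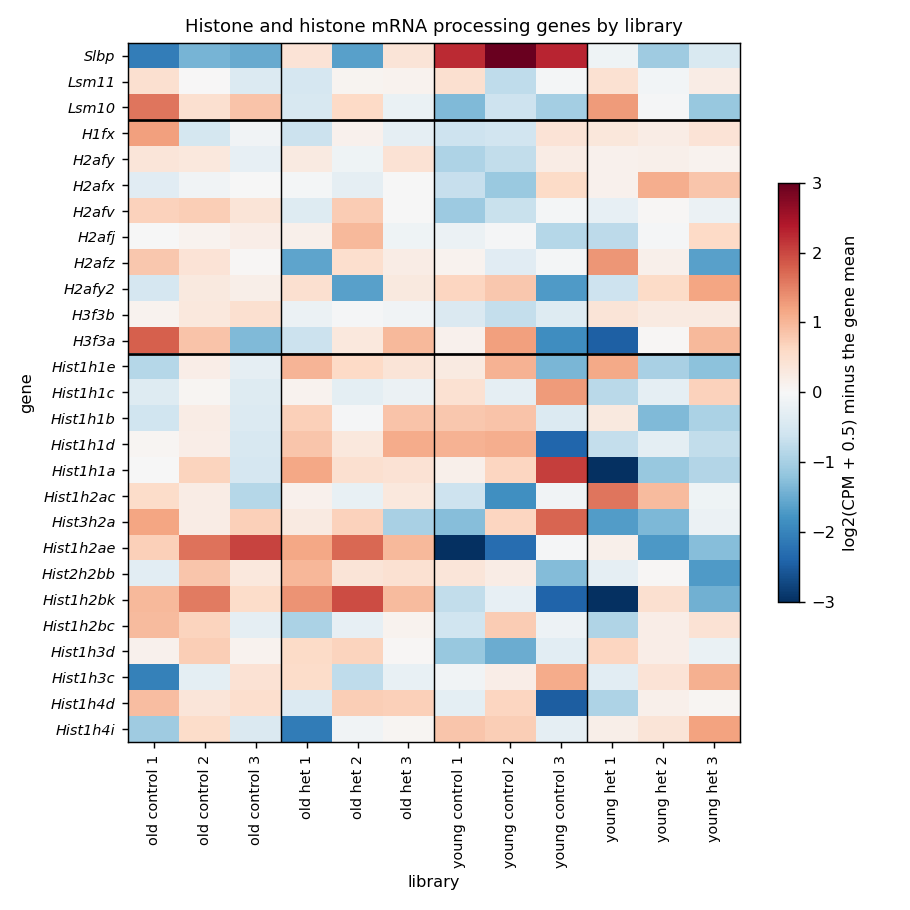
Level of each named member in each of 12 libraries, as log2(CPM + 0.5) minus the mean of the gene, with red above and blue below that mean. Black lines separate processing, replacement and Hist genes and the 4 groups. Slbp is red in all 3 young controls (410.0 to 673 CPM). Hist1h2ae and Hist1h2bk are higher in the 6 old libraries than in the 6 young ones, and the share of all genes alike was not counted.

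Replacement histone genes gave most of the histone counts. Hist genes made up 11.1% to 26.3% of all histone counts of a library, with the highest shares in young controls 1 and 2 (26.1% and 26.3%) and the lowest in young het 3. The replacement genes summed to 3605, 3681 and 3084 CPM in old controls, 3178, 3059 and 3534 in old hets, 3389, 4178 and 3816 in young hets, and 1797, 1786 and 3523 in young controls. Young control 3 was thus level with the other groups and apart from young controls 1 and 2. H2afy, which encodes macroH2A1, was the most counted of them, at 765, 865 and 1694 CPM in young controls and 1228 to 1967 CPM elsewhere. Of the 19 replacement genes 9 were tested, H1f0 and H2afy3 had 22 and 2 counts in all, and 8 had none (H1fnt, H1foo, H2afb1, H3f3c and 4 pseudogenes).

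H3f3b, a gene of the H3.3 variant, stood at 319.7, 265 and 332 CPM in young controls, 573, 525 and 522 in young hets, 467, 543 and 602 in old controls and 387, 427 and 407 in old hets. Young hets were all above young controls, as for 9.72% of all genes, and old hets were all below old controls, as for 5.99%. The log2 change of H3f3b was 0.82 in the young (SE 0.28, adjusted p = 0.181), -0.40 in the old (adjusted p = 0.999) and -1.22 for the difference of effects (SE 0.39, adjusted p = 0.194). It was 0.81 in old against young control (adjusted p = 0.0803) and -0.41 in old against young het (adjusted p = 0.870). edgeR called none of these, and DESeq2 called H3f3b in the young (0.75, adjusted p = 0.0451), for the difference (-1.13, adjusted p = 0.0246) and between controls (0.73, adjusted p = 0.0229). H3f3a, which encodes the same protein, had only 0.336 to 15.5 CPM, and reads of the 2 genes and their pseudogenes could have been split in counting.

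H2afv, a gene of the H2A.Z family, was the only replacement gene that edgeR called with all libraries. It stood at 479.5, 495 and 389 CPM in old controls and at 139, 185 and 287 CPM in young controls, and rose by 1.16 on the log2 scale between them (SE 0.35, adjusted p = 0.0474). Old hets (227, 504 and 297 CPM) and young hets (252, 304 and 264 CPM) overlapped. The call on H2afv was kept without old het 2 or young control 3 (1.17 and 1.44, adjusted p = 0.0235 and 0.0199). It was lost without each of the other 10 libraries, with adjusted p from 0.0574 to 0.195. Neither H2afv nor Hist1h2ae was called with DESeq2 size factors, with the compared groups alone, or with Xist or mitochondrial rRNA as a covariate, and both were called by DESeq2 and without a filter on low counts. H2afz, the other H2A.Z gene, ranged from 9.38 to 76.3 CPM with overlapping groups.

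H2afx stood at 459, 347 and 1111 CPM in young controls, 819.9, 1595 and 1323 in young hets, 586, 699 and 739 in old controls and 713, 617 and 739 in old hets. Young control 3 lay within the young hets. The log2 change of H2afx was 0.96 in young het against young control (SE 0.38, adjusted p = 0.254). Without young control 3 it was 1.63 and was called (adjusted p = 0.0255). It was -0.93 for the difference of effects (adjusted p = 0.493) and -0.85 in old against young het (adjusted p = 0.745). H1fx, a linker histone gene, stood at 72.3 CPM in old control 1 and at 19.4 to 41.3 CPM in every other library. Its log2 change in old het against old control was -0.64 (adjusted p = 0.999) and was 0.08 without old control 1. H2afj and H2afy2 ranged from 26.0 to 92.6 and from 2.29 to 20.1 CPM.

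As a set, replacement genes had positive log2 changes in young het against young control for 8 of 9 (median 0.46, beside 0.08 over all genes) and negative ones in old het against old control for 6 of 9 (median -0.40, beside -0.05). Leaving out old control 1 gave an old median of -0.06, and leaving out old het 1 gave -0.16. The difference of effects was negative for all 9 tested genes, with a median of -0.83, beside -0.18 over all genes, where 4606 of 10604 genes were positive. In old against young control 8 of 9 were positive (median 0.56, beside 0.22), and in old against young het 4 of 9 (median -0.41, beside 0.01). The last median was -0.036 without old het 1, -0.18 without old het 2, -0.16 without young het 3 and -0.25 without young het 1. The young control level enters 3 of these comparisons. With 1 library left out, the young median ranged from 0.45 to 0.77. The replacement sum was low in young controls 1 and 2 (1797 and 1786 CPM) but not in young control 3 (3523 CPM). Young control 3 also shared the pattern of sex-linked RNA with the young hets. The part of such differences between libraries in the young values was not tested.

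**Figure D5:**
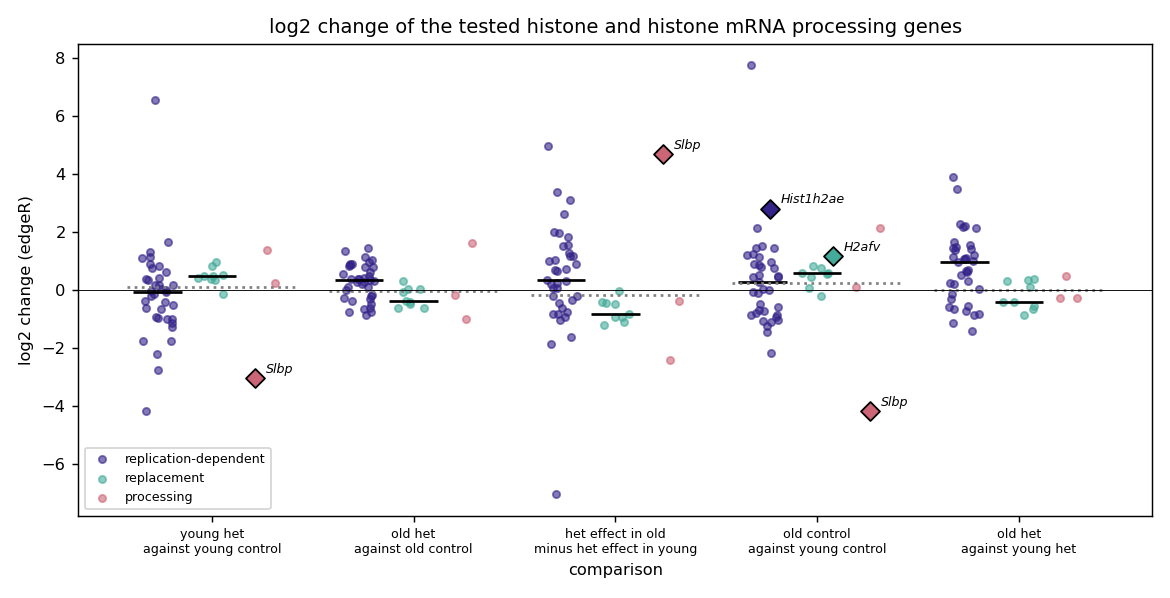
log2 change of each of 49 tested members (y) in the 5 comparisons (x), coloured by replication-dependent, replacement and processing genes. Diamonds are members past an adjusted p of 0.05, short black bars the medians of the Hist and replacement genes, and dotted lines the medians of all tested genes. Slbp is the only diamond in the young comparison (-3.05) and for the difference of effects (4.68), and old het against old control and old het against young het have none.

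Among other genes of histone mRNA metabolism, edgeR made calls in old against young control only. Of 21 tested genes for the U7 snRNP and cleavage of histone precursor mRNA, 1 rose and 1 fell in old against young control, near the 2.79% higher and 4.19% lower of all genes. Snrpf, which encodes an Sm protein of U7 and of the splicing snRNPs, was counted 1, 0 and 0 times in young controls but 223, 148 and 39 times in old controls (adjusted p = 0.00545), and 59, 98 and 19 times in young hets (adjusted p = 0.0629). The size of a fitted change from so few counts has no meaning and is not given. Srrt, a partner of the nuclear cap-binding complex, stood at 1613, 875 and 737 CPM in young controls and 351, 466 and 319.7 CPM in old controls, a fall of 1.51 (SE 0.36, adjusted p = 0.0147). DESeq2 called 3 genes of this list between controls, Snrpf in young het against young control and Srrt for the difference of effects. Over all genes it called 1295, 355 and 296 in that order. The call on Srrt was lost without old control 1, old control 3 or young control 1 (adjusted p = 0.0666, 0.0744 and 0.0755).

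Of 23 tested genes for export, translation and decay of histone mRNA, 1 fell in old against young control, also near the 4.19% of all genes. Fem1b encodes a substrate receptor of a ubiquitin ligase, of a family known to target SLBP in human cells. It stood at 268, 212.5 and 226 CPM in young controls, 104.5, 125 and 138 in young hets, 61.2, 57.0 and 72.5 in old controls and 93.0, 66.5 and 89.3 in old hets. Every young control was above every other library, as for Slbp, a separation whose share over all genes was not counted. Old controls were entirely below young controls for 12.2% of all genes, and young hets entirely below young controls for 7.12%. The fall of Fem1b between controls was 1.89 (SE 0.31, adjusted p = 0.00148). A link between Fem1b and Slbp was not tested. In young het against young control Fem1b changed by -0.94 (adjusted p = 0.163), which edgeR did not call. DESeq2 called 2 genes of this list in young het against young control, Fem1b and Zcchc6, Fem1b for the difference of effects, and Fem1b and Lsm2 between controls. Over all genes it called 355, 296 and 1295 in these comparisons. With mitochondrial rRNA as a covariate none of Snrpf, Srrt and Fem1b was called between controls (adjusted p = 0.336, 0.429 and 0.261), where that fit called 0 of all genes.

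Histone chaperones and S phase genes held no called member in any comparison by edgeR. Of 28 tested chaperone genes 9 had an unadjusted p under 0.05 in old against young control, where 2453 of 10604 genes had one. DESeq2 called 5 chaperone genes there, all lower, beside 1295 genes in all. Chaf1a, the large subunit of the CAF-1 chaperone that deposits new histones behind the replication fork, stood at 419, 194 and 85.6 CPM in young controls and 72.4, 98.1 and 68.1 CPM in old controls (-1.55, adjusted p = 0.0501). Supt16h, a subunit of the FACT chaperone, changed by -1.28 (adjusted p = 0.0571). The 37 tested S phase genes, among them Mcm genes, Pcna and Ccne1, had a median log2 change of -0.08 in young het against young control. It was 0.00 in old het against old control, -0.14 in old against young control and -0.21 in old against young het. Over all genes these medians were 0.08, -0.05, 0.22 and 0.01. The unadjusted p was under 0.05 for 3, 1, 3 and 2 S phase genes in that order, and for 1488, 380, 2453 and 666 of all genes. DESeq2 called 1 S phase gene in the young comparison (Cdc45, higher), 0 in the old and 1 between controls (Pcna, lower). The S phase genes summed to 6084 to 6617 CPM in young controls, 6417 to 7422 in young hets, 4760 to 6524 in old controls and 6060 to 6577 in old hets. These ranges overlapped in each comparison.

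Markers of blood cell types that the sorted cells held, or could have held by carry-over, moved in the same comparisons. In old against young control edgeR called 3 of 8 neutrophil granule genes higher and 3 of 5 tested B lymphoid genes lower. The log2 change was negative for 2 of these 8 and positive for 2 of these 5. Called higher too were 3 of 4 tested dendritic and MHC class II genes and 2 of 4 tested stem cell genes. Of all tested genes 2.79% were called higher and 4.19% lower there. DESeq2 called 0 stem cell genes and 2 dendritic and MHC class II genes there. Old control 1 held 270 CPM of Hlf and 388 CPM of Meis1. The other old controls held 31.8 and 34.5 CPM of Hlf and 44.3 and 37.1 CPM of Meis1. Of the MHC class II gene H2-Aa, old control 1 held 187 CPM and the other old controls 17.2 and 19.5 CPM. Of 6 monocyte genes Irf8 was called higher and F13a1 lower (-1.69, adjusted p = 0.0259). F13a1, which encodes a subunit of coagulation factor XIII, stood at 1010, 1003 and 1250 CPM in young controls, 589, 371 and 434 in young hets, 143, 504 and 368 in old controls and 1097, 329.9 and 957 in old hets. Like Slbp, it was high in the young controls and in old hets 1 and 3. Unlike Slbp, F13a1 was higher in old het 1 than in young controls 1 and 2. Among the same markers, the group means of Ly86 and Csf1r were also highest in young controls (67.8 and 22.1 CPM). Those of Irf8 and Klf4 were lowest there (254 and 25.6 CPM). For the difference of effects F13a1 was not called by edgeR (2.46, adjusted p = 0.101), and DESeq2 called F13a1 and Ly86, beside 296 genes in all. Monocyte markers summed to 1431 to 1707 CPM in young controls, 623 to 1293 in young hets, 795 to 1427 in old controls and 1197 to 1887 in old hets. In young het against young control edgeR called 2 of 8 neutrophil granule genes and 1 of 6 tested basophil and mast cell genes higher, against 0.179% of all genes. Neutrophil granule markers summed to 4402 to 10530 CPM in young controls, 10510 to 13540 in young hets, 5922 to 14270 in old controls and 8360 to 14770 in old hets. B lymphoid markers summed to 206 to 275 CPM in young controls, 95.8 to 145 in young hets, 36.5 to 396 in old controls and 41.3 to 88 in old hets, and the defining gene Cd79a was at 0 in all groups but young het. Erythroid markers summed to 1936 to 2183 CPM in young controls, 1715 to 2488 in young hets, 777 to 2309 in old controls and 668.5 to 1419 in old hets. Cd3e and Cd3g were at 0 in old het and in both young groups. The part of these cell markers in the changes of Slbp, Hist1h2ae and H2afv was not tested.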

How the data were processed

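The values are counts of reads per gene symbol, not normalized, as the authors deposited them in 1 table of 12 libraries. Per the labels' protocols, a Lexogen kit for 3' mRNA-seq was used. The submitters' processing notes name STAR 2.4, HTSeq 0.6.1, DESeq2 and build mm9, without role. Strand setting, annotation and any UMIs were not given in the sources used here; near-identical, overlapping or antisense genes cannot be told apart.

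Groups follow the labels, with replicates numbered in accession order. Genes passed filterByExpr (minimum count 10, minimum total 15) and were tested with edgeR 4.0.16 in R 4.3.3 (quasi-likelihood F test, TMM scaling, 1 fit of 4 groups, biological coefficient of variation 0.535). P-values were adjusted over 10604 genes by Benjamini-Hochberg at 0.05. An SE is the absolute log2 change divided by the square root of F. The steps were tested on simulated counts, the outcome of which is not given here. Alternatives were DESeq2 1.42.0, its size factors, no filter, the compared groups alone, 2 covariates and left-out libraries.

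Named were the processing genes, called members, the 15 most counted tested Hist genes, the tested replacement genes, and per comparison the 3 Hist and 2 replacement genes of smallest p. Called pathway genes, or up to 3 by p, were also eligible. Members, lists and alternatives were chosen with earlier results of these data known. Transcripts came from GENCODE M21, and where a gene had several, the one with the most bases after the stem-loop was used. No coordinates were converted.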

Additional observations from a re-analysis of the deposited data

Results flagged for a closer look

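The het effect on Slbp differed between the ages. On the log2 scale it was 1.63 in old and -3.05 in young progenitors, a difference of 4.68 (SE 0.63, adjusted p = 0.00377 by edgeR's quasi-likelihood test of the interaction). Leaving out 1 library at a time gave 4.44 to 5.10, and the call was kept each time. With mitochondrial rRNA as a covariate the difference was 2.82 and was not called (adjusted p = 0.772). This share was higher in every young control than in any young het or old control, so that fit cannot tell share and group apart there. The RNA U3 was also highest in the young controls (446, 583 and 554 CPM), and its part in the Slbp values was not tested.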

How the results depend on the processing

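The number of members called depended on the setting. In young het against young control it was 1, and 3 by DESeq2, 2 without a filter, 2 without old control 1 and young control 3 and 0 with mitochondrial rRNA as a covariate. In old het against old control it was 0, and 1 without a filter, where Slbp was called (1.65). For the difference of effects it was 1, and 2 by DESeq2 and 0 with mitochondrial rRNA as a covariate. In old against young control it was 3, and 5 by DESeq2, 0 with mitochondrial rRNA as a covariate, and 1 each with DESeq2 size factors, with the compared groups alone and with Xist as a covariate. With mitochondrial rRNA as a covariate Slbp changed by -2.0025, 2.82 and -2.71 in the young comparison, the difference and the controls, not called, the only planned setting other than a left-out library that ended a call on Slbp. That share did not overlap between young controls and either young hets or old controls, and the cause was not tested.

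Counts over all genes moved more. In young het against young control 45 genes were called, and 355 by DESeq2, 258 without a filter, 13 with the compared groups alone, 23 with Xist, 1 with mitochondrial rRNA and 241 without old control 1 and young control 3. In old het against old control the 0 became 11 without a filter. For the difference the 9 became 296 by DESeq2, 216 without a filter, 20 with Xist, 0 with mitochondrial rRNA and 59 without those 2 libraries. Between controls the 740 became 1295 by DESeq2, 352 with Xist, 0 with mitochondrial rRNA and 463 without the 2 libraries. Between hets the 1 became 15 by DESeq2, 22 without a filter, 2 with the compared groups alone, 0 with Xist, 2 with mitochondrial rRNA and 8 without the 2 libraries. The fit of the compared groups alone does not apply to the difference.

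Medians moved by more than the spread between replicates in few settings. The replacement median for the difference was -0.33 with mitochondrial rRNA, and the Hist median between hets was 0.59 with the compared groups alone and 0.56 with Xist. Scaling by DESeq2 size factors moved the median of all genes between controls from 0.22 to 0.15.

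Leaving out 1 library at a time gave 0 to 2 members and 1 to 157 genes called in the young comparison, with Slbp at -3.28 to -2.80 and a Hist median of -0.61 to -0.036. The gene count moved by over 1.5 times without any library but old control 1 and old het 1, was 1 without young control 2 or young het 3 and 157 without young control 3. In the old comparison 0 to 1 genes were called, the 1 without old control 2, with a Hist median of 0.03 to 0.62 and a replacement median of -0.44 to -0.06. For the difference 2 to 294 genes were called, the 294 without old het 2, with a Hist median of 0.33 to 0.89. Between controls 1 to 4 members and 315 to 886 genes were called, with a Hist median of -0.21, without old control 2, to 0.43. Between hets 0 to 7 genes were called, the 7 without young control 3, with a Hist median of 0.51 to 0.94 and a replacement median of -0.44 to -0.036.

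Among single genes, directions reversed only for values that were never called. Lsm11 became -0.15 in the young comparison, 0.084 in the old, 0.24 for the difference and -0.47 between controls with mitochondrial rRNA. Between controls it became -0.091 with Xist and -0.21 without old control 1 and young control 3, and in the old comparison 0.10 without these libraries, where H1fx became 0.085. With 1 library left out Lsm11 ranged from -0.047 to 0.57 in the young comparison, from -0.36 to 0.10 in the old and from -0.25 to 0.37 between controls, H1fx from -0.94 to 0.083 in the old and Lsm10 from -0.70 to 0.54 between hets. Of 715 values of single genes other than Slbp under these settings, 656 kept their direction and call, 33 lost the call, 10 gained it and 16 reversed.

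No paired analysis was possible because the replicate numbers follow accession order and the labels pair no libraries. Depth limits the low Hist genes most, since 3 counts stand for 5.10 CPM in young control 2.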
